A study of Mus musculus with 28 samples.

Results

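The genes examined were the 10 that mark cholinergic and monoamine neurons by making or moving their transmitter, out of 21951 protein-coding genes of the annotation. They were chosen by function, with earlier results of these data known. *Chat*, *Slc18a3* and *Slc5a7* stand for acetylcholine. *Th*, *Ddc*, *Slc6a3* and *Slc18a2* stand for dopamine, *Dbh* for noradrenaline, and *Tph2* and *Slc6a4* for serotonin. H3K4me3 and H3K27me3 were profiled by CUT&RUN (CnR), in which an antibody-tethered nuclease cuts out marked chromatin, after INTACT purification of nuclei by a tag on the nuclear envelope. The nuclei came from the striatum of mice of the genotype Sun1-sfGFP;A2a-cre (called A2a here) or Sun1-sfGFP;Drd1-cre (called D1), males and females of about 8 weeks on a C57BL/6J background for which no treatment is given. Both carry a R26-CAG-LSL-Sun1-sfGFP allele, whose tagged nuclear envelope protein is expressed only after Cre recombination, so a nucleus was captured when *Adora2a* or *Drd1* regulatory sequence drove Cre in it or in its lineage. Of 28 samples in the series, 8 stand behind the values given here, 2 for each of the 2 cell types (A2a and D1 medium spiny neurons, MSN) and 2 marks.

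A neuron that releases acetylcholine needs choline acetyltransferase (*Chat*), the vesicular acetylcholine transporter (*Slc18a3*) and the choline transporter that takes choline back up (*Slc5a7*). Dopamine is made from tyrosine by tyrosine hydroxylase (*Th*) and aromatic L-amino acid decarboxylase (*Ddc*), turned into noradrenaline by dopamine β-hydroxylase (*Dbh*), loaded into vesicles by the monoamine transporter *Slc18a2* and taken up by the dopamine transporter *Slc6a3*, while serotonin is made by *Tph2* and *Ddc* and taken up by *Slc6a4*. A2a and D1 MSN are GABA neurons. In the striatum acetylcholine comes mainly from interneurons, and dopamine and serotonin come from axons whose cell bodies lie in the midbrain and brainstem. H3K4me3 sits at the starts of active or poised genes, and H3K27me3 is the repressive mark of Polycomb.

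For H3K4me3 there were 22551 A2a and 20080 D1 peaks, and for H3K27me3 there were 60191 A2a and 45760 D1 islands. Over the total length of its islands, the A2a list held 73.4 reads per kb and the D1 list 42.8 reads per kb, and the reads are not normalized for depth. Each list pools its 2 replicates, so there is 1 value per cell type and mark, no spread between mice and no test, and the intervals given are 95% intervals of counting error only. The source name of the D1 H3K27me3 samples reads A2a while their title and cell type read D1. In the list taken as D1, an island of 45.0 kb spanned *Adora2a*, where the A2a list had none at the promoter, and the island at *Drd1* was 1.80 kb long against 16.8 kb in A2a. The striatal projection neuron markers *Ppp1r1b*, *Bcl11b*, *Foxp1*, *Rgs9* and *Pde10a* carried H3K4me3 without H3K27me3 at the promoter in both cell types. Of 8 glial markers, 3 had a promoter peak in A2a and 1, *Mbp*, in D1, beside 58.2% and 55.8% of protein-coding genes.

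Of the reference promoters, 6 are shown because they span what was found at these genes, from dense to sparse CpG and from full to no H3K27me3. Each holds 250 bases before and 50 after the RefSeq start on GRCm38.p6, written 5′ to 3′ on the strand of the gene, with CpG dinucleotides in capitals. *Slc18a3* (chr14:32464801-32465100, minus strand) has 27 CpG and *Slc6a4* (chr11:76998347-76998646, plus strand) has 28. *Slc5a7* (chr17:54298985-54299284, minus strand) has 1. The *Th* promoter (chr7:142899946-142900245, minus strand) has 15, the downstream one of *Ddc* (chr11:11890359-11890658, minus strand) 5, and that of *Dbh* (chr2:27165257-27165556, plus strand) 2. The median over 32851 RefSeq promoters was 7.
Slc18a3: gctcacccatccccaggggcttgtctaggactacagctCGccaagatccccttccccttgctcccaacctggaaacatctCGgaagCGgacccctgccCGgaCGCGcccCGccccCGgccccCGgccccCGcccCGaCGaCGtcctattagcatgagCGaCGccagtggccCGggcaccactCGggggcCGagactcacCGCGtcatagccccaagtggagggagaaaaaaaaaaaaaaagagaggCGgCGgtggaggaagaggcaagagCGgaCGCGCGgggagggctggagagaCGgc
Slc6a4: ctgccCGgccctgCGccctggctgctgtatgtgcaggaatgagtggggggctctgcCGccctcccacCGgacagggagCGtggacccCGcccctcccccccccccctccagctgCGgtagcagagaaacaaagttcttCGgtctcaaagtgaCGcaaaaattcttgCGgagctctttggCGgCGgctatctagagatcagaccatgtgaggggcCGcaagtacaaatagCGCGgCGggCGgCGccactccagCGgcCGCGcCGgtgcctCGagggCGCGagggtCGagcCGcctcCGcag
Slc5a7: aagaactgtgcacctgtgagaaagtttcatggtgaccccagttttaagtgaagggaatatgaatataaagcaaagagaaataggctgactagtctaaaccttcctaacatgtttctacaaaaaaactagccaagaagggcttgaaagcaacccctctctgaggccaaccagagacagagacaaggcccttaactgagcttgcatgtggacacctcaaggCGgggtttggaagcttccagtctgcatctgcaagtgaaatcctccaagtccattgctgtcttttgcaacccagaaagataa
Th: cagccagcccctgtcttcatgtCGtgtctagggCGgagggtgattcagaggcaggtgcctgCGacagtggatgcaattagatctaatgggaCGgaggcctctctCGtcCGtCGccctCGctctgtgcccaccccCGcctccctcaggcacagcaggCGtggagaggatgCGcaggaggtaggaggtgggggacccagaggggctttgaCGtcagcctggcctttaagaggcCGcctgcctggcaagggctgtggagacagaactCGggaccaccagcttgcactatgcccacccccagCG
Ddc, downstream start: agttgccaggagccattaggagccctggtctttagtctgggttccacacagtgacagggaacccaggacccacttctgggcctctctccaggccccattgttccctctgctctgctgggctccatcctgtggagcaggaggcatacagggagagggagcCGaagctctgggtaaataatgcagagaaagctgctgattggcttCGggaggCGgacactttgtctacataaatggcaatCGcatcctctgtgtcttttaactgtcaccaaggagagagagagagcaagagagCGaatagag
Dbh: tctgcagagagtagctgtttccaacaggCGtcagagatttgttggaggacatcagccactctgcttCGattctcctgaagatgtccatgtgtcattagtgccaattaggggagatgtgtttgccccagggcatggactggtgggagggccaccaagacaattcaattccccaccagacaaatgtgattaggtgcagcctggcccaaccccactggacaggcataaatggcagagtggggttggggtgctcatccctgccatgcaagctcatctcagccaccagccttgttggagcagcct
All 300 bases of the *Slc18a3*, *Slc6a4*, *Slc5a7* and downstream *Ddc* sequences lay under an H3K27me3 island in both lists. All 300 bases of the *Th* sequence lay under an island in A2a and 55 in D1. None of the *Dbh* sequence did in either list, and none of the 6 sequences was touched by an H3K4me3 peak.

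None of the 10 genes had an H3K4me3 peak at its promoter in either cell type, taking the promoter as 2 kb upstream to 1 kb downstream of the annotated 5′ end. A promoter peak was present at 58.2% of protein-coding genes in A2a and at 55.8% in D1. H3K27me3 islands overlapped 7 of the 10 promoters in A2a (21.6% of protein-coding genes) and 8 in D1 (15.3%). The 7 with an island in both lists (14.3%) were *Chat*, *Slc18a3*, *Slc5a7*, *Slc6a3*, *Slc18a2*, *Tph2* and *Slc6a4*. The eighth in D1 was *Dbh*, the only member with a promoter island in D1 and not in A2a (1.0%). Both marks together were found at 0 of 10 promoters in A2a (9.53%) and 0 of 10 in D1 (5.56%).

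Among the 9142 protein-coding genes without a promoter peak in either list, 29.0% had a promoter island in A2a and 19.8% in D1. *Th* and *Ddc* had neither mark in the window of the annotated 5′ end. For both, however, RefSeq places a start further into the gene, 31.1 kb downstream for *Th* and, as the second of 2 starts, 7.74 kb downstream for *Ddc*. Read at RefSeq starts, 9 of 10 genes had an island in A2a, with *Dbh* as the exception, and 10 of 10 had one in D1, against 21.7% and 15.3% of the 16539 protein-coding genes with such a start in the RefSeq table. *Ddc* was then the 1 gene with an H3K4me3 peak and with both marks in A2a (62.0% and 10.2% of those genes), and 0 genes had either in D1 (59.6% and 6.04%).

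**Figure D1:**
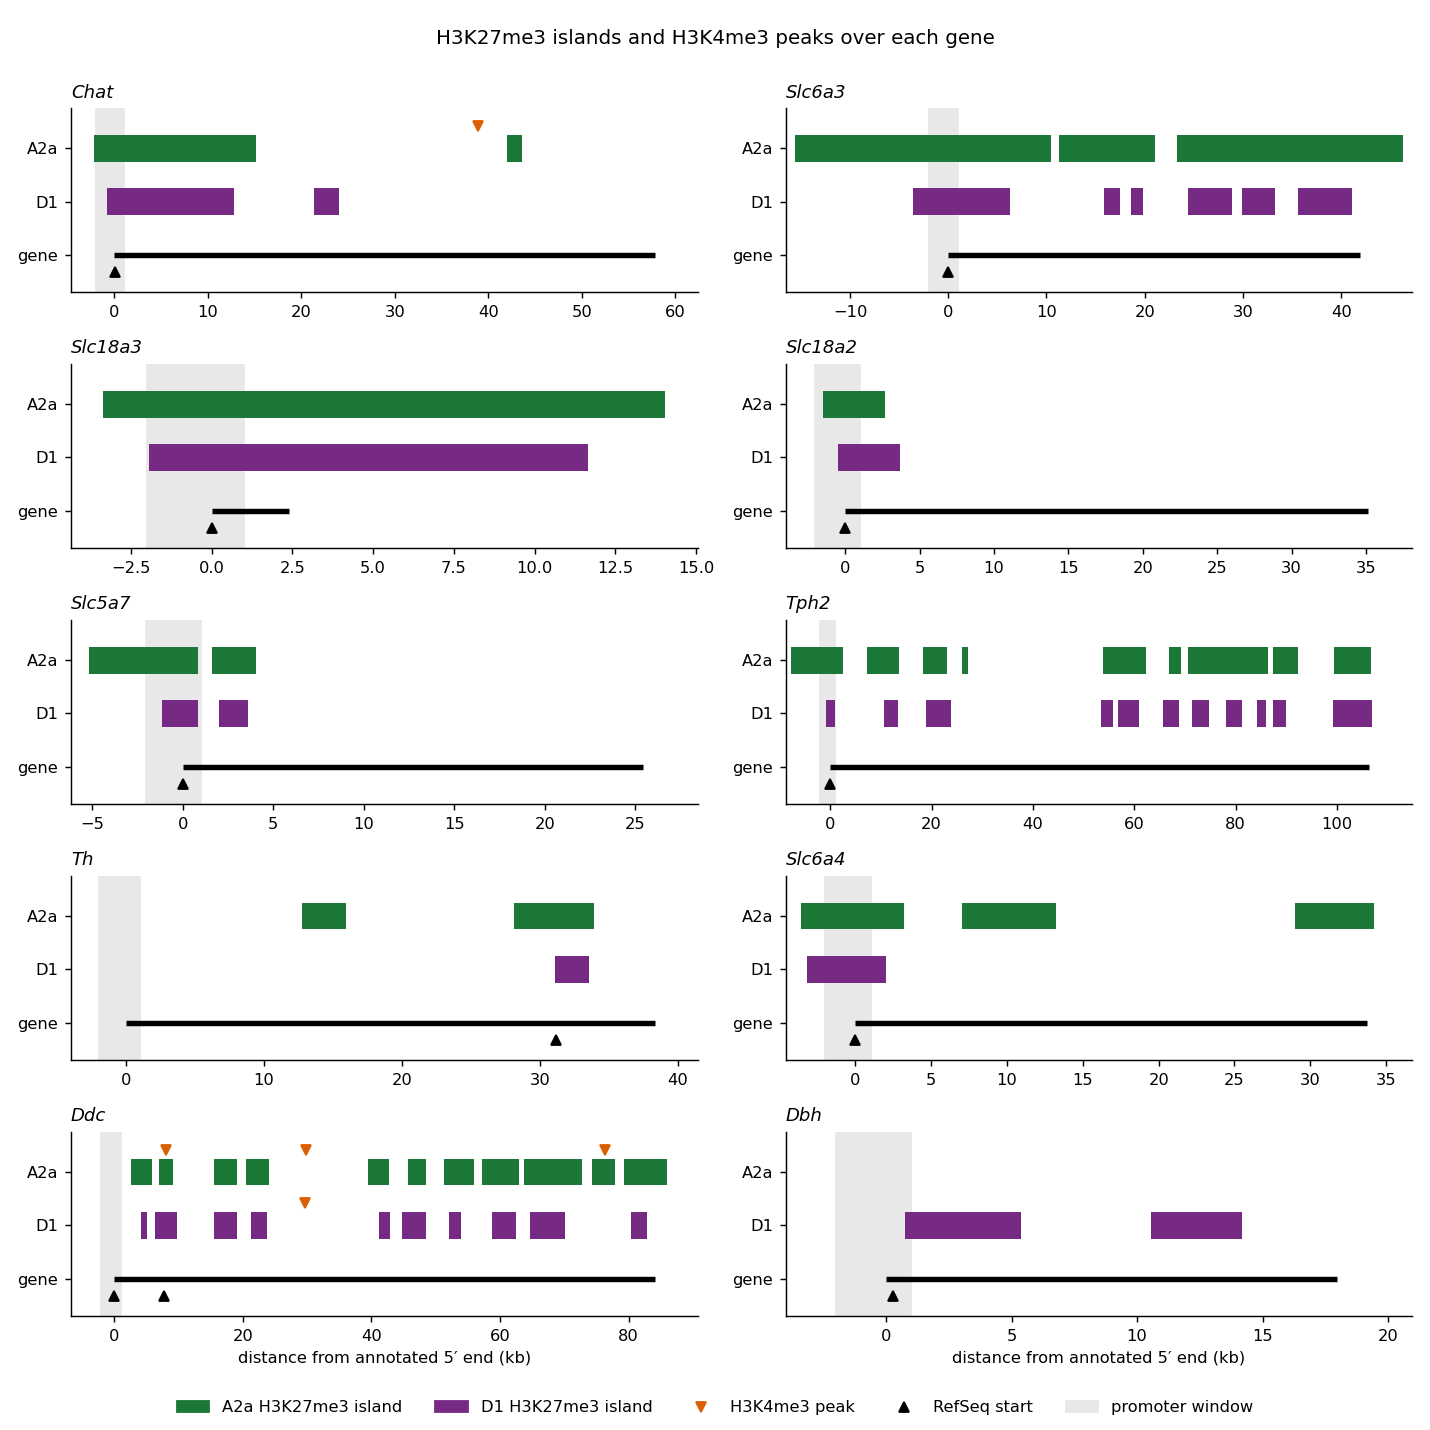
H3K27me3 islands of A2a (green) and D1 (purple) and H3K4me3 peaks (orange triangles) along each of the 10 genes, with the distance from the annotated 5′ end in kb on the x axis, the gene as a black line, RefSeq starts as black triangles and the promoter window in grey. Islands overlap the grey window in both lists at 7 genes, *Th* has an island at its RefSeq start in both, and *Dbh* has islands in D1 alone.

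*Chat* and *Slc18a3* shared a single large island. *Slc18a3* (chromosome 14 from 32462438 to 32464850, 2.41 kb) lies inside *Chat* (32408203 to 32465989, 57.8 kb) on the same strand without overlapping its exons, an arrangement known as the cholinergic locus. In A2a the island ran from 2.21 kb upstream to 15.2 kb downstream of the *Chat* 5′ end, over 17.4 kb with 2235 reads. Its density was 128 reads per kb (123 to 134) and it ranked at percentile 98.6 of the A2a islands by reads. In D1 the island was 13.6 kb long with 876 reads, a density of 64.4 reads per kb (60.2 to 68.8) at percentile 98.3, and it lay inside the A2a island. *Slc18a3* was thus 100% under islands in both cell types, while 29.1% of *Chat* was in A2a and 26.6% in D1. The 5′ end of the antisense gene *Gm2990*, 0.947 kb into *Chat*, lay under the same island, whose reads cannot be told apart between the overlapping genes.

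Further into *Chat* the lists differed. A2a had an island of 1.60 kb from 42.0 to 43.6 kb with 109 reads, D1 one of 2.60 kb from 21.4 to 24.0 kb with 72 reads, and neither overlapped an island of the other list. The A2a H3K4me3 list had an intronic peak of 818 bp with its summit 38.7 kb into *Chat*, with a fold enrichment of 4.88 and a −log10 q of 9.41, at percentile 17.8 by −log10 q. The D1 list had none in the gene.

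*Slc5a7* (chromosome 17 from 54273590 to 54299034), the choline transporter, had a smaller island at its promoter, of 6.00 kb with 603 reads in A2a (100 reads per kb, 92.6 to 109) and of 2.0 kb with 111 reads in D1 (55.5 reads per kb, 45.7 to 66.8). Both ended 0.833 kb into the gene, and the A2a island reached 5.17 kb upstream where that of D1 reached 1.17 kb. A second island followed in both lists, from 1.63 to 4.03 kb in A2a and from 2.03 to 3.63 kb in D1. The rest of the gene was free of islands, with 12.7% under them in A2a and 9.57% in D1.

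Among the dopamine genes, the transporter *Slc6a3* (chromosome 13 from 73536747 to 73578672) carried the longest promoter island of the 10 in A2a and the second longest in D1, after that of *Chat* and *Slc18a3*. In A2a it spanned 26.0 kb with 2791 reads (107 reads per kb, 103 to 111), at percentile 99.0, and in D1 it spanned 9.80 kb with 735 reads (75.0 reads per kb, 69.7 to 80.6), at percentile 97.8. In A2a, 3 islands of 26.0, 9.80 and 23.0 kb covered 92.8% of the gene. D1 split the same stretch into 6 islands that covered 53.1% of it, all of them under A2a islands.

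The vesicular transporter *Slc18a2* (chromosome 19 from 59260896 to 59296012), which all monoamine neurons use, had 1 island in each list, both 4.20 kb long. It held 434 reads in A2a (103 reads per kb, 93.8 to 114) and 229 in D1 (54.5 reads per kb, 47.7 to 62.1). The A2a island ran from 1.5 kb upstream to 2.70 kb downstream and the D1 island from 0.495 kb upstream to 3.70 kb downstream, so that 3.20 kb were common to both, and the share of the gene under islands was 7.70% in A2a and 10.6% in D1. The antisense gene *Gm29261*, whose 5′ end is 0.523 kb into *Slc18a2*, shares this promoter.

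*Th* (chromosome 7 from 142892752 to 142931128), the first enzyme of dopamine synthesis, is annotated with an upstream 5′ end 31.1 kb before its RefSeq start. At the RefSeq start an A2a island of 5.80 kb held 371 reads, or 64.0 reads per kb (57.6 to 70.8), at percentile 76.4. The D1 island there was 2.40 kb long with 94 reads, or 39.2 reads per kb (31.7 to 47.9), at percentile 42.9, and lay within the A2a island. A2a had a further island of 3.20 kb with 191 reads from 12.7 to 15.9 kb. The islands of *Th* covered 23.5% of the annotated gene in A2a and 6.25% in D1. That length includes the 31.1 kb before the RefSeq start. The further A2a island and part of the A2a island at the RefSeq start lie in this stretch, so the gap in cover depends on the annotation. From the annotated promoter of *Th* the nearest H3K4me3 peak was at 34.4 kb in A2a and at 119 kb in D1.

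*Ddc* (chromosome 11 from 11814101 to 11898144), the decarboxylase shared by the dopamine and serotonin pathways, was the member with most islands in A2a and the one with most H3K4me3 peaks. A2a had 11 islands with 51.2 to 73.3 reads per kb over 55.3% of the gene, and D1 had 10 islands with 28.8 to 51.7 reads per kb over 35.2%. Each of the 10 D1 islands overlapped one of A2a. The first began 2.54 kb after the annotated 5′ end in A2a and 4.14 kb after it in D1. Within the promoter window of the downstream RefSeq start, A2a had 2 islands, of 2.20 kb with 144 reads and of 3.40 kb with 219 reads, and D1 had 1 of 3.40 kb with 135 reads.

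The A2a list held 3 intronic H3K4me3 peaks in *Ddc*, with summits at 8.13, 29.7 and 76.2 kb and fold enrichments of 3.13, 3.91 and 4.30. All were weak for their list, at percentiles 0.754, 7.57 and 11.9 by −log10 q. The peak at the downstream RefSeq start, at 8.13 kb, was 328 bp long with a −log10 q of 3.13 and lay inside the 2.20 kb island. In D1 the single peak in *Ddc* had its summit at 29.9 kb, a fold enrichment of 3.31 and a −log10 q of 3.44, at percentile 2.41. The A2a peak near 29.7 kb spanned the annotated 5′ end of the antisense gene *1700042O10Rik*, 30.0 kb into *Ddc*, the D1 peak lay just beside it, and no island of either list lay there.

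The serotonin enzyme *Tph2* (chromosome 10 from 115078641 to 115185022) had islands spread along its 106 kb. At the promoter the A2a island was 10.4 kb long with 694 reads (66.7 reads per kb, 61.9 to 71.9) and the D1 island 1.80 kb long with 78 reads (43.3 reads per kb, 34.3 to 54.1). These ranked at percentiles 90.7 and 27, the widest gap among the 7 genes with a promoter island in both lists. In the gene, A2a had 9 islands over 50.2% of the length and D1 had 11 over 34.6%. All 11 D1 islands overlapped one of A2a. The densest island of *Tph2* was not at the promoter but from 18.2 to 23.0 kb in A2a, with 673 reads or 140 reads per kb (130 to 151), and its D1 counterpart from 18.8 to 23.8 kb was also the densest of that list in the gene, with 59.8 reads per kb (53.2 to 67.0). The longest A2a island, of 15.8 kb with 1172 reads, began at 70.6 kb.

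The serotonin transporter *Slc6a4* (chromosome 11 from 76998603 to 77032340) had a promoter island in both lists, of 6.80 kb with 710 reads in A2a (104 reads per kb, 96.9 to 112) and of 5.20 kb with 290 reads in D1 (55.8 reads per kb, 49.5 to 62.6). They ranked at percentiles 91.1 and 89.9, and the D1 island lay inside that of A2a. A2a had another 2 islands further in, of 6.20 kb with 343 reads and of 5.20 kb with 255 reads, and D1 had none. *Slc6a4* was therefore 41.9% under islands in A2a and 5.92% in D1.

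*Dbh* (chromosome 2 from 27165233 to 27183200), which makes noradrenaline, went the other way. The A2a list held no island in the gene, and the nearest lay 17.4 kb from the promoter. D1 held 2, of 4.60 kb with 173 reads (37.6 reads per kb, 32.2 to 43.6) from 0.768 to 5.37 kb and of 3.60 kb with 133 reads (36.9 reads per kb, 30.9 to 43.8) from 10.6 to 14.2 kb. Together they covered 45.6% of *Dbh*. The first met the promoter window by 233 of 3001 bp and ranked at percentile 77.0 of the D1 islands. A gene with no island in A2a and at least 1 in D1 was found at 1.22% of protein-coding genes.

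**Figure D2:**
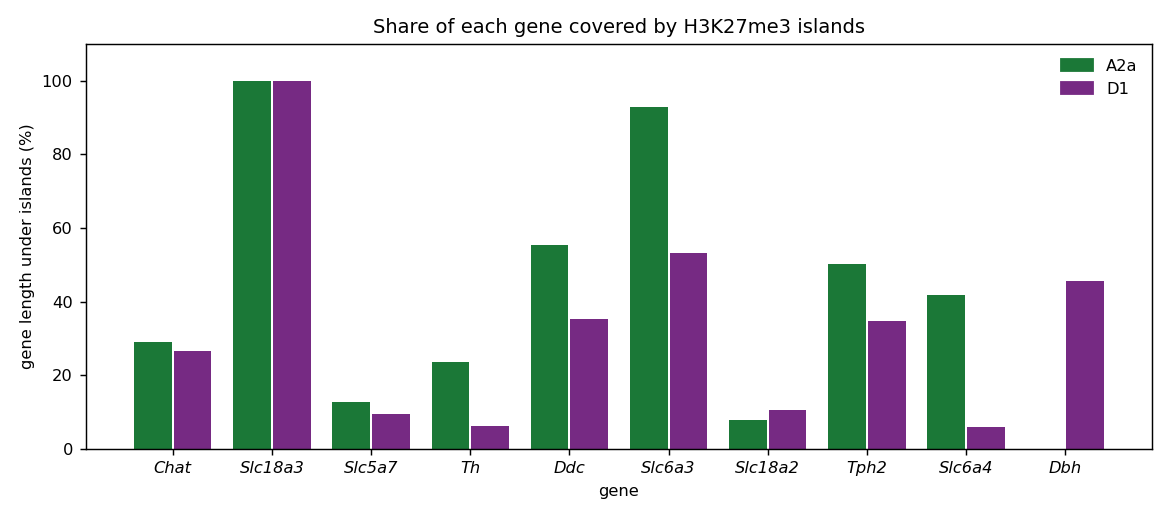
Percent of the length of each gene that lies under H3K27me3 islands, with A2a bars in green and D1 bars in purple. *Slc18a3* is at 100% in both lists, *Slc6a3* is at 92.8% in A2a and 53.1% in D1, and *Dbh* is at 0% in A2a and 45.6% in D1. The length used for *Th* is the annotated one, which includes 31.1 kb before its RefSeq start.

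An island lay somewhere in 9 of the 10 genes in A2a (27.7% of protein-coding genes) and in 10 of 10 in D1 (21.0%). The median share of the gene under islands was 35.5% in A2a and 30.6% in D1. Over protein-coding genes with any island it was 29.2% and 19.7%, and over all protein-coding genes 0% in both. More of the gene was covered in A2a at 7 of the 10 (22.8%) and more in D1 at 2, *Slc18a2* and *Dbh* (4.0%). These shares are of all protein-coding genes, most of which hold no island. In numbers, 4999 protein-coding genes had more cover in A2a and 879 had more in D1. The A2a islands cover 301 Mb in all and the D1 islands 184 Mb, so more cover in A2a is not particular to the 10 genes. The genes held 33 distinct islands in A2a and 36 in D1, and 33 of the D1 islands overlapped an island of A2a. Over the whole D1 list, 78.7% did. The D1 islands without an A2a counterpart were the intronic one of *Chat* and both of *Dbh*.

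**Figure D3:**
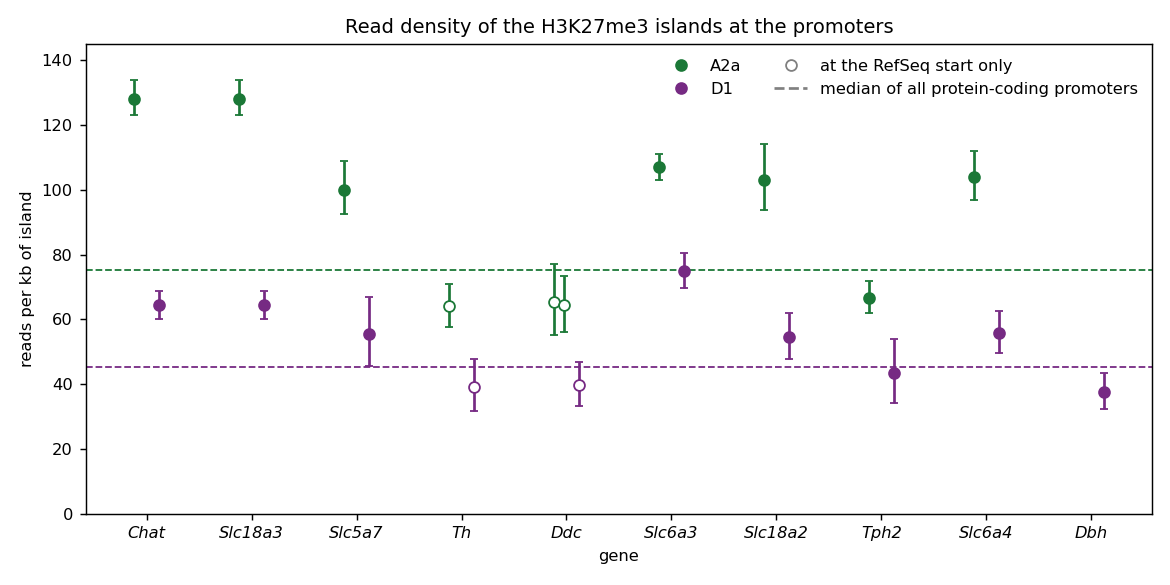
Reads per kb of the H3K27me3 islands at each promoter, with 95% Poisson intervals, for A2a (green) and D1 (purple). Open circles are islands at RefSeq starts where the annotated promoter has none, and dashed lines are the medians over protein-coding promoter islands, 75.3 in A2a and 45.4 in D1. At each gene with an island in both lists the A2a values lie above the D1 value, and *Dbh* has a D1 value alone.

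Read densities at the promoters were compared with those of other genes in the same list. The 6 distinct promoter islands in A2a had a median of 104 reads per kb (range 66.7 to 128), against 75.3 over 4572 islands at protein-coding promoters. The 7 in D1 had a median of 55.5 (37.6 to 75.0), against 45.4 over 3268. At the annotated 5′ ends, the *Tph2* island lay below the median of other promoters in A2a, and those of *Tph2* and *Dbh* did in D1. The islands of *Th* and *Ddc* at their RefSeq starts also lay below it in both lists. The islands at the annotated 5′ ends had a median length of 8.60 kb in A2a against 5.80 kb over protein-coding promoters, and of 4.60 kb in D1 against 4.60 kb. With islands at any annotated start of the 10 genes, the A2a median turned to below that of other promoters, at 66.1 reads per kb over 14 islands with a median length of 5.90 kb, and the D1 median was 46.9 over 12 islands.

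The ratio of A2a to D1 density had a median of 1.88 (quartiles 1.66 and 2.09) over the 3132 protein-coding genes with promoter islands in both lists, which is the level against which a single gene is read since the reads are not normalized. The ratio was 1.99 (1.84 to 2.16) for the island of *Chat* and *Slc18a3*, 1.81 (1.48 to 2.24) for *Slc5a7*, 1.90 (1.61 to 2.23) for *Slc18a2* and 1.87 (1.63 to 2.15) for *Slc6a4*, and each of these intervals includes the median. For *Slc6a3* it was 1.43 (1.32 to 1.55), at percentile 8.43 of those genes. The ratio for *Tph2* was 1.54 (1.22 to 1.97), at percentile 14.6, with an interval that includes the median. At the RefSeq starts it was 1.63 (1.30 to 2.07) for *Th* and 1.63 (1.34 to 2.0) for *Ddc*. For *Ddc* it takes both A2a islands there together. The ratio sets whole islands side by side that differ in length between the lists, such as 26.0 and 9.80 kb at *Slc6a3* and 10.4 and 1.80 kb at *Tph2*, so it is not a fold change over the same sequence. The intervals hold counting error alone.

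By the state of the promoter over the 4 lists, the 7 genes with an island in both cell types and no peak in either shared their state with 1663 protein-coding genes in all (7.58%). *Th* and *Ddc*, with neither mark at the annotated 5′ end, shared theirs with 6350 (28.9%). The state of *Dbh* was that of 143 genes (0.651%).

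CpG content, which the choice of genes did not use, varied widely among the promoters. It was taken as the observed over the expected number of CpG in the 3001 bp window. The median over the 10 genes was 0.333, against 0.400 over all protein-coding genes, 0.532 over those with a promoter peak in both lists, 0.288 over those with no peak and an island in both, and 0.161 over those with neither mark. *Slc18a3* (0.577) and *Slc6a4* (0.549) lay above the median of promoters with peaks, although neither had a peak. *Chat* (0.326), *Slc5a7* (0.339), *Slc6a3* (0.348) and *Slc18a2* (0.381) were close together. *Tph2* (0.225), *Ddc* (0.215), *Dbh* (0.179) and *Th* (0.116, at its annotated 5′ end) were the lowest.

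**Figure D4:**
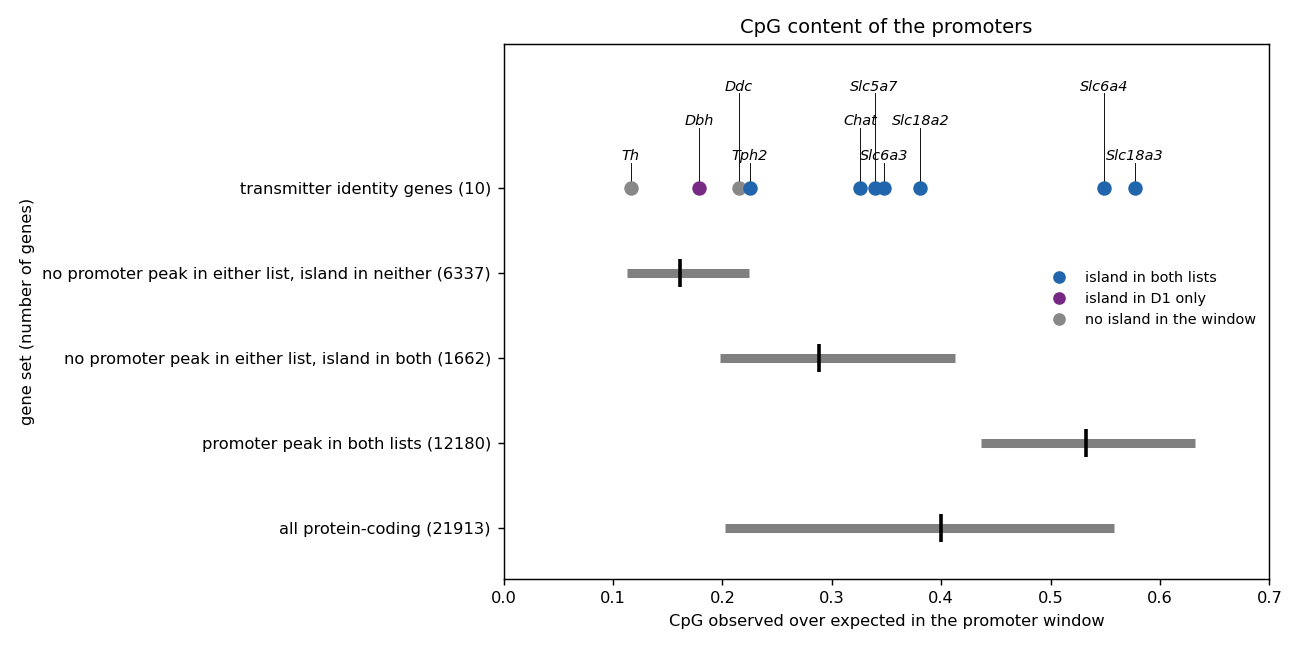
Observed over expected CpG in the promoter window (x axis) for each of the 10 genes, coloured by where an H3K27me3 island overlapped the window, and for sets of protein-coding genes, with the median as a tick and the quartiles as a grey bar. The genes run from 0.116 at *Th* to 0.577 at *Slc18a3*. The 3 genes without an island in both lists at the annotated 5′ end are at the low end together with *Tph2*. *Th* and *Ddc* do have islands in both lists at a RefSeq start further into the gene, outside this window. Over the 300 bases of the RefSeq promoter there, the value is 0.484 for *Th* and 0.228 for *Ddc*.

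A few short motifs were looked up on both strands of the 300 bp RefSeq promoters, where a match describes letters and not a bound site. TGACGTCA, the full cAMP response element, is present in 1.79% of RefSeq promoters and was found in *Th*, 45 bases before the start, and in *Slc18a2*. The GC box GGGCGG (35.7% of promoters) was found in *Slc18a2*, *Slc18a3*, *Slc6a3*, *Slc6a4* and *Th*. The TATA box letters TATAAA (13.6%) were found in *Tph2*, 30 bases before the start, and in *Ddc* and *Slc5a7*. AAAGGTCA, the site of NR4A monomers, was found in the upstream *Ddc* promoter (1.51%). Parts of the RE1 element, to which the repressor REST binds, were added after the sequences had been seen. TTCAGCACC (0.371%) was found in *Tph2*, and GGACAGCG (1.26%) in *Tph2* and *Slc18a2*.

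The genes that supply and break down these transmitters were read in the same way, beside promoter peaks at 58.2% of protein-coding genes in A2a and 55.8% in D1 and islands at 21.6% and 15.3%. Of 9 genes of acetylcholine supply and breakdown, 7 promoters had H3K4me3 peaks and 2 had H3K27me3 islands in each cell type, *Ache* among those with a peak alone. *Slc10a4*, with no peak, encodes a vesicular transporter-like protein of cholinergic and monoamine neurons, and had an island of 12.0 kb with 1160 reads in A2a and of 6.60 kb with 331 reads in D1. Of 10 genes of the monoamine cofactor and of monoamine breakdown, 8 had a peak in A2a and 7 in D1, and 2 had an island in A2a and 0 in D1. Those with an island were *Gch1*, the first enzyme of tetrahydrobiopterin synthesis, with an A2a island of 29.6 kb and 2670 reads beside a promoter peak with a fold enrichment of 11.2, and *Pcbd1*, with 2.60 kb and 190 reads. Of 8 other genes of monoamine synthesis and transport, 2 had a peak in each list, and 3 had an island in A2a and 2 in D1. *Slc6a2*, the noradrenaline transporter, had an island of 11.6 kb with 1502 reads in A2a and of 9.60 kb with 691 reads in D1 and no peak, the state of *Slc6a3* and *Slc6a4*.

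All 24 transcription factors listed as regulators of cholinergic, dopamine, noradrenaline and serotonin neurons, which set up these neurons in development, had a promoter island in both cell types (14.3% of protein-coding genes). A promoter peak was present at 7 of the 24 in A2a (58.2%) and at 4 in D1 (55.8%). The islands of the 24 were larger than those of the identity genes, with a median of 30.0 kb (3.80 to 105) at 167 reads per kb in A2a and of 27 kb (2.80 to 78.8) at 89.5 reads per kb in D1. The difference was not tested, since the lists hold single values. For acetylcholine neurons, 6 of 6 had an island, the largest at *Nkx2-1* (105 kb with 18215 reads in A2a, 49.8 kb with 4981 reads in D1) and *Zic4* (80.0 kb with 15143 reads and 78.8 kb with 7234 reads). At *Isl1*, which also acts in developing striatal neurons, A2a had 31.2 kb of island with 6620 reads and D1 had 5.80 kb with 229 reads. For dopamine neurons 8 of 8 had one. The A2a island with most reads was at *En2* (78.4 kb with 12053 reads, beside a promoter peak). At *En2* D1 had an island of 31.2 kb with 2909 reads and no peak. The D1 island with most reads was at *En1* (40.2 kb with 4716 reads), where the A2a island spanned 50.8 kb with 10770 reads. For noradrenaline neurons 5 of 5 had one, the largest at *Hand2* (74.6 kb with 15202 reads and 69.8 kb with 7592 reads). For serotonin neurons 5 of 5 had one, the largest at *Gata3* (39.6 kb with 7377 reads and 34.0 kb with 3234 reads).

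**Figure D5:**
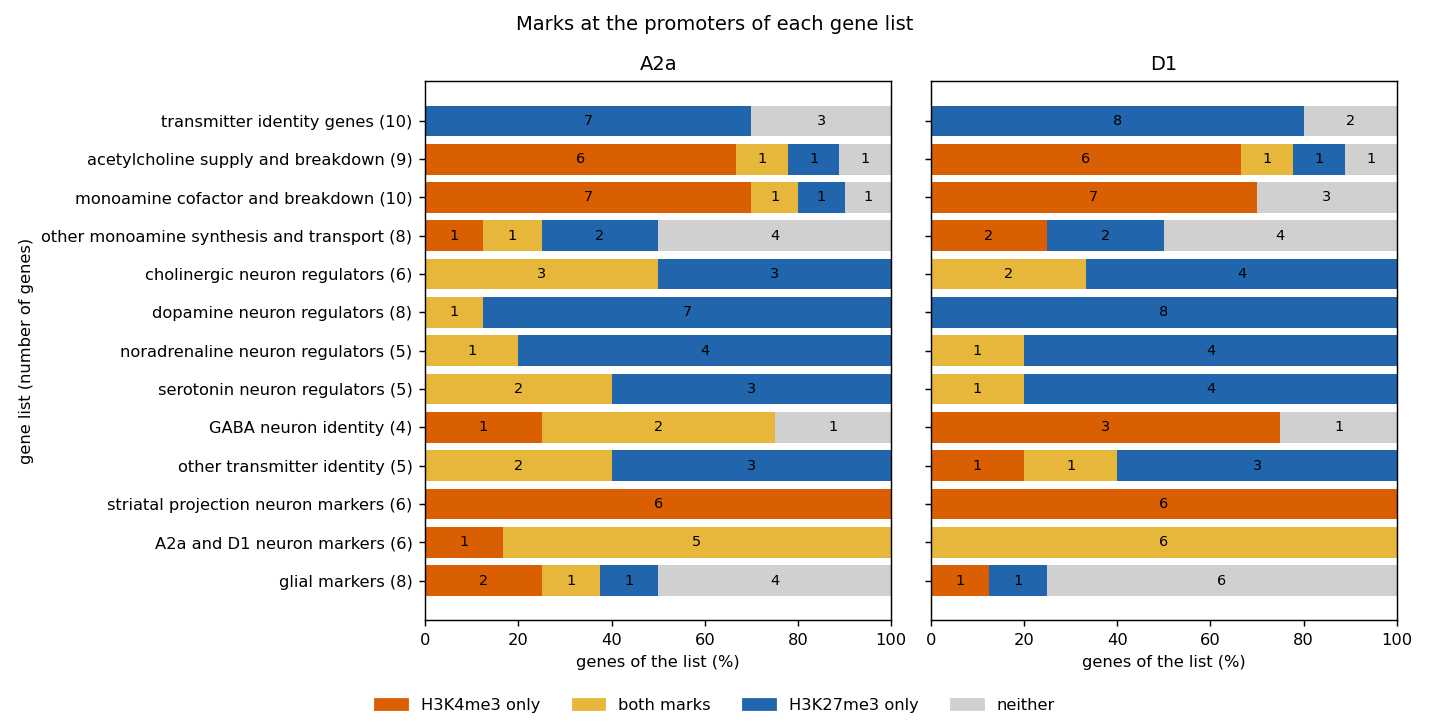
Percent of the genes of each list whose promoter had an H3K4me3 peak only, both marks, an H3K27me3 island only or neither, in A2a (left) and D1 (right), with the number of genes in each block. The 10 transmitter identity genes have no block with a peak in either panel, and all 24 regulators have an island in both.

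For the transmitter that MSN themselves use, GABA, the synthesis gene *Gad2* and the vesicular transporter *Slc32a1* had a promoter peak in both cell types, with fold enrichments of 3.78 and 3.69 in A2a and of 4.07 and 3.17 in D1. Both also had islands in A2a, of 7.60 kb with 462 reads and 4.40 kb with 227 reads, and none in D1. *Gad1* had neither mark at its annotated 5′ end. Of 5 genes of glutamate and glycine transport, 2 had a promoter peak in each list (58.2% of protein-coding genes in A2a and 55.8% in D1). An island was present at 5 of them in A2a (21.6%) and at 4 in D1 (15.3%). *Slc17a6*, a vesicular glutamate transporter, resembled the identity genes, with an island of 20.4 kb and 2899 reads in A2a and of 14.6 kb and 1200 reads in D1 and no peak.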

How the data were processed

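The 4 lists analysed each pool 2 replicate CnR libraries, and the series holds a further 20 samples that were not analysed here. Reads had been mapped by the authors to mm10 (GRCm38) with bowtie2 (version 2.1.0) and filtered with samtools (version 0.1.19), with a minimum mapping quality of 20, no duplicates and insert sizes from 150 to 500 bp. The authors ran MACS2 for H3K4me3 with a q-value threshold of 0.01, so a deposited peak has a fold enrichment over local background, which is a ratio, and a −log10 q-value. For H3K27me3 the authors ran SICER (200 bp window, 600 bp gap, false discovery rate 0.01), and the deposited value is the read count of the island, not normalized. The control library of the islands is not given in the sources used here, and the study gives depth as a range over samples and not per library, so read counts were not scaled and only counting error is given.

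Genes and 5′ ends were those of GENCODE vM21 (55450 genes). Sequences and RefSeq starts came from the RefSeq promoter table of GRCm38.p6, in which 10 of 10 genes matched and all 11 promoters were identical to the genome. An overlap of 1 bp counted. Percentiles are ranks within the own list, by reads or by −log10 q. Intervals are exact Poisson for densities and exact binomial, conditional on the sum of reads, for ratios. No difference was tested, since no list holds replicates. All 10 genes are named. From each of 12 further gene lists at most 3 were to be named, by the largest island read count and then by a promoter state that differed between A2a and D1. *Ache*, *Gad1*, the glial and the MSN marker genes named go beyond that rule and were chosen after their values had been seen. Some genes of these lists are not reported here by name. The genes, lists and rules were chosen with earlier results of these data known. The overlap procedures were tested on simulated data. Python was version 3.11.15, with numpy 2.4.6, scipy 1.17.1 and matplotlib 3.10.9.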

Additional observations from a re-analysis of the deposited data

How the results depend on the processing

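The counts and ratios over the 10 genes, and the shares of all genes set beside them, were recomputed under 10 alternatives in all, 1 of which, the RefSeq start, was chosen after seeing the data. These gave 72 values, of which 65 stayed within 1.5 times the reported count or within the spread over genes. The transcript start mattered most. With any annotated start, or with the RefSeq start, 1 gene (*Ddc*) in place of 0 had a promoter H3K4me3 peak in A2a and 1 in place of 0 had both marks there. With any annotated start, the median ratio of A2a to D1 reads per kb at promoter islands was 1.58 in place of 1.84. Over all annotated genes in place of protein-coding ones, the share with a promoter H3K4me3 peak was 30.1% in A2a and 28.6% in D1. Promoter islands were counted at 7 to 9 genes in A2a and at 7 to 10 in D1 over all alternatives.

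No paired analysis was possible because each list pools its replicates, and for the same reason values without 1 replicate are not given. A2a islands hold more reads per kb than D1 islands, and the part of depth in this was not tested. A gene without an island is one where none was called. Every comparison of H3K27me3 between the cell types rests on the D1 label of samples whose source name reads A2a.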

Other observations

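The 6 markers of A2a and D1 neurons were *Adora2a*, *Drd1*, *Drd2*, *Pdyn*, *Penk* and *Tac1*. Both marks were found at the promoter of 6 in D1 and of 5 in A2a, beside 5.56% and 9.53% of protein-coding genes. The islands differed in size. Those at *Drd1*, *Pdyn* and *Tac1* held 1958, 4641 and 9144 reads in A2a and 86, 50 and 121 in D1. Those at *Drd2* and *Penk* held 160 and 200 reads in A2a and 559 and 1365 in D1. *Adora2a* had no promoter island in A2a and an island with 4153 reads in D1. The paper reports less H3K27me3 at these genes in the cell type that expresses them.

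Of 8 glial markers, 2 had a promoter island in A2a and 1 in D1, beside 21.6% and 15.3% of protein-coding genes. *Tmem119*, a gene of microglia, had 8.40 kb of island with 623 reads in A2a and 1.80 kb with 67 reads in D1, and a peak in A2a alone with a fold enrichment of 5.52. *Mog*, a myelin gene of oligodendrocytes, had a peak in A2a alone, with a fold enrichment of 4.24 at percentile 23.0. *Mbp* had a peak at its annotated 5′ end in both, at a fold of 7.21 over background in A2a and 6.82 in D1. These ranked at percentiles 88.1 and 80.7. *Gfap*, *Aqp4*, *Aif1* and *Cx3cr1* had no promoter peak in either list. The part of other cell types in the values of the transmitter genes was not tested.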
